A study of Mus musculus with 16 samples.

Results

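The ATF4-CHOP stress regulators described here are 10 mouse genes: Atf4, Ddit3, Trib3, Chac1, Atf3, Sesn2, Ppp1r15a, Atf5, Cebpb and Nupr1. They were taken by symbol from a table of 55421 genes, in which 11 entries carry these symbols because Ddit3 is listed under a pair of identifiers. Each was measured by RNA sequencing of cultured hepatic progenitor cells, or oval cells, a proliferating epithelial population of the injured liver. The 4 groups compared had 4 libraries each: Ptpn1-/- cells (KO) given palmitic acid, KO control cells, Ptpn1+/+ cells (WT) given palmitic acid, and WT control cells. Palmitic acid, a saturated fatty acid, was given at 400 µM for 8 h in DMEM with reduced serum and albumin. The growth medium of all the cells was DMEM with serum, and the labels do not describe the medium of the controls or state how many cell lines or clones stand for each genotype. Genotype and cell line therefore cannot be told apart, nor can palmitate and any difference in medium between treated and control cells. The labels also leave unstated whether libraries of a group came from separate cultures, so every p-value reflects scatter among libraries, which may be technical.

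These genes belong to the integrated stress response. Kinases that sense unfolded protein in the endoplasmic reticulum, amino acid shortage, haem shortage or viral RNA phosphorylate the initiation factor eIF2, which lowers general protein synthesis while favouring translation of a few mRNAs, Atf4 and Atf5 among them. The ATF4 protein then switches on genes for amino acid supply and, with partners such as CHOP (the product of Ddit3) and C/EBP proteins, genes that either restore translation or favour cell death. Saturated fatty acids are known to start this response in liver cells. Because ATF4 protein is controlled largely at translation, mRNA levels of Atf4 do not report its activity.

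The DNA that ATF4 binds as a dimer with a C/EBP protein carries the composite letters TGATGNAA. These letters, read on both strands, occurred in the promoter windows of 4 of the 10 genes, Atf3, Chac1, Trib3 and Nupr1. A window ran from 250 bases before to 50 bases after a gene's start in RefSeq (GRCm38.p6), and the 10 genes had 11 windows, since Atf5 has a pair of starts. Of 32851 mouse promoter windows of the same length, 3.97% held TGATGNAA. All 4 matches lie on the strand opposite to the gene, so each reads TTNCATCA in the direction of the gene, in capitals here, within 30 bases of the gene strand. The sites are chr1:191183425-191183454 for Atf3, chr2:119351038-119351067 for Chac1, chr2:152344028-152344057 for Trib3 and chr7:126625562-126625591 for Nupr1, on the minus strand except for Chac1, which is on the plus strand.
Atf3: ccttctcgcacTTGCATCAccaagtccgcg
Chac1: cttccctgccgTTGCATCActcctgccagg
Trib3: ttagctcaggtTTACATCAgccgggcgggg
Nupr1: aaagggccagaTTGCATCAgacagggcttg
The Atf3 and Nupr1 matches both lie 110 to 103 bases before the start, the Chac1 match lies 193 to 186 bases before it, and the Trib3 match lies 15 to 22 bases after it. The Trib3 site has 5 bases in annotated exons and the Nupr1 site lies wholly in an annotated exon. Atf3, Chac1 and Nupr1 share the same 8 letters, and Trib3 differs at the free position. A match describes the letters only and says nothing of binding in these cells.

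A second motif, the core TGACG of CREB and ATF sites, was found on either strand in 6 of the 11 windows, those of Atf3, Chac1, Trib3, Cebpb, Ppp1r15a and Atf4, and in 20.8% of all windows. In Ppp1r15a it occurs on both strands with an overlap, which gives the palindrome capitalised in the site chr7:45526269-45526298 on the minus strand, 12 to 5 bases before the start.
Ppp1r15a: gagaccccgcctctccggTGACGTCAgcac
The third motif, CCAAT, was found in 6 windows, among them those of Atf4, Atf3, Chac1, Sesn2 and Ddit3, against 37.4% of all windows. Both windows of Atf5 and the windows of Ddit3 and Sesn2 held neither TGATGNAA nor TGACG.

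Values are the normalized counts the authors deposited, that is, read counts divided by a library's size factor. Library depth was 21553952 to 35693442 reads. Ptpn1 checked the genotype labels. It averaged 293 ± 11.6 normalized counts in KO palmitate libraries and 1852 ± 16.7 in WT palmitate libraries, or 15.8% of the WT level (SD, n = 4 each; exact two-sided permutation p = 0.0286, the smallest that 70 assignments allow). In control libraries it averaged 329.5 ± 16 in KO and 1937 ± 39.0 in WT, or 17.0% (SD, n = 4 each; exact two-sided permutation p = 0.0286). The genotypes also differed in cell type markers. Summed over 12 stellate cell and fibroblast markers, KO libraries held 3288 to 4429.9 normalized counts and WT libraries 154909 to 185713, with Lrat at 0 throughout. Summed over 12 hepatocyte markers, KO libraries held 54752 to 65029.7 and WT libraries 3139 to 3812. Apob, Hnf4a, Serpina1a, Ttr and Alb carried most of the KO sum. Tat averaged 41.61 in KO palmitate, 48.65 in KO control, 45.35 in WT palmitate and 47.8 in WT control libraries. Cyp2e1, Cyp3a11, Cps1 and G6pc were near 0 in every group, the highest mean being 5.025 for G6pc in KO palmitate libraries. Over 16 progenitor markers the sums were 276011 to 305375 in KO libraries and 152107 to 163616 in WT libraries, with Epcam at 0 in every WT library. Spp1 carried most of that sum, averaging 192214 in KO palmitate, 184089 in KO control, 85761 in WT palmitate and 84275 in WT control libraries. Prom1 ran the other way, averaging 0.81 in KO palmitate, 0 in KO control, 22.4 in WT palmitate and 19.1 in WT control libraries. Ribosomal RNA made up 0.0812% to 0.107% of KO reads and 0.0525% to 0.0624% of WT reads. The part of these differences in the genotype results below was not tested.

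Set against each other, 8 of the 10 regulators differed between genotypes in control cells, 2 higher and 6 lower in KO than in WT. A gene was called where its Benjamini-Hochberg adjusted p was under 0.05 in limma on log2(value + 1) over 15239 genes, the rule used for every call here. That count has to be read against the background, since 37.8% of all genes tested were called higher and 39.3% lower in the same comparison, so the share of regulators called is close to that of genes at large. After palmitate 2 were higher and 6 lower in KO, against 38.1% and 39.0% of all genes. The 2 higher genes were Ppp1r15a and Cebpb in control cells, but Ddit3 and Atf5 after palmitate. Palmitate raised 9 of the 10 in KO cells and lowered none, against 18.7% of all genes called higher and 20.4% called lower. In WT cells it also raised 9 and lowered none, against 17.7% and 19.9% of all genes. The median log2 fold change of the 10 was 1.01 in KO and 0.95 in WT cells for palmitate over control, beside 0.00 and 0.01 over all genes tested. For KO over WT it was -0.27 after palmitate and -0.465 in control cells, beside -0.01 in both over all genes. Measured in bulk, fewer cells expressing a gene and less RNA per cell cannot be told apart.

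Scaled to the merged length of all annotated exons of a gene, Atf4 and Atf5 ranked highest of the 10 mRNAs in every group. That length is 2.514 kb for Nupr1, and a gene expressed from a shorter transcript would have a higher level than given. Which transcripts were expressed was not examined. Atf4 stood first in 3 groups, at 1700.1 ± 40.9 normalized counts per kb in KO control, 4604 ± 126 in WT palmitate and 3369.5 ± 120 in WT control libraries (SD, n = 4 each). In KO palmitate libraries Atf5 stood first, at 3387 ± 408 per kb beside 2787 ± 142 for Atf4. The least abundant per length were Sesn2 in both palmitate groups, at 198 ± 17.3 per kb in KO and 260.4 ± 17.3 in WT, Chac1 in KO control, at 29.0 ± 4.59, and Atf3 in WT control, at 151 ± 6.6. Atf3 moved most in this order. It held rank 4 of the 10 in both palmitate groups, rank 8 in KO control and rank 10 in WT control libraries.

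**Figure D1:**
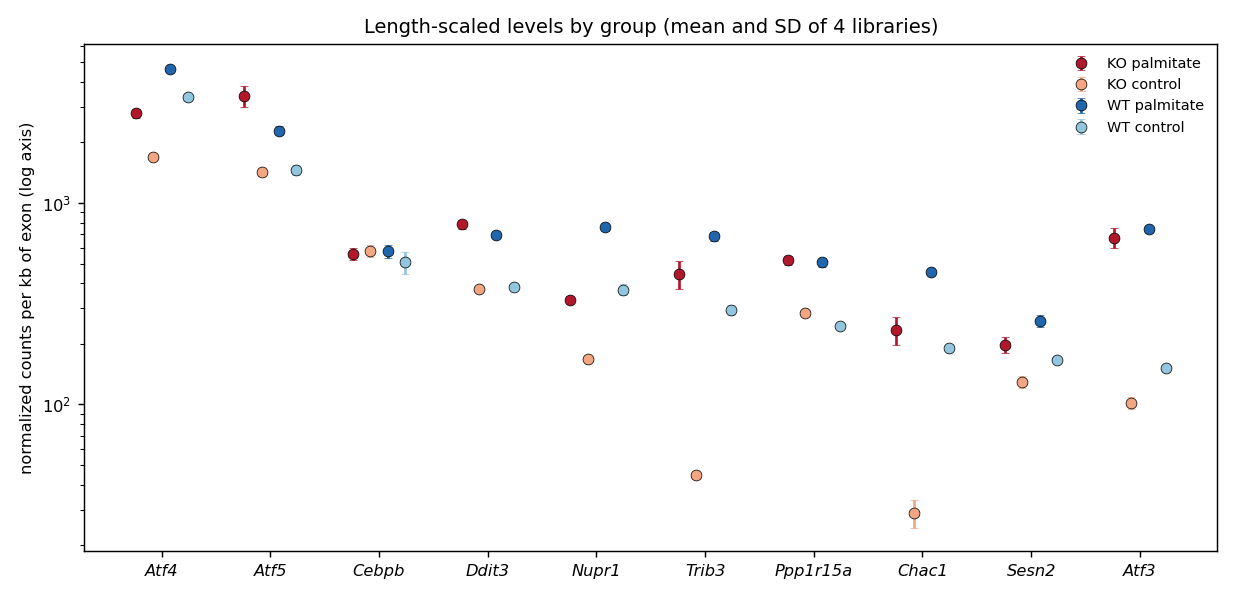
Level of each regulator mRNA in normalized counts per kb of exon on a log axis, as the mean (point) and SD (bar) of 4 libraries in each of the 4 groups. Atf4 and Atf5 lie above the other 8 genes in every group, and the KO control points of Trib3 (44.5 per kb) and Chac1 (29.0 per kb) lie far under the other groups' points of the same genes.

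Atf4 (ENSMUSG00000042406.8, chr15:80255184-80257541, plus strand, GRCm38) encodes the central transcription factor of the response. Its mRNA was lower in KO than in WT under both conditions and higher after palmitate in both genotypes. KO palmitate libraries held 6345, 6295, 6622 and 7024 normalized counts and KO control libraries 4057, 4109.7, 3888 and 3981. WT palmitate libraries held 11194, 10506, 10747 and 10979.7 and WT control libraries 8214, 7990.1, 8029 and 7548. No group overlapped another, and every KO library, treated or not, lay under every WT library. In log2 terms KO stood at -0.73 ± 0.03 against WT after palmitate and -0.99 ± 0.03 in control cells (SE, n = 4 each; limma adjusted p = 8.6e-18 and 5.72e-21). Palmitate raised the mRNA by 0.71 ± 0.03 in KO and 0.45 ± 0.03 in WT (limma adjusted p = 8.57e-16 and 1.9e-11).

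Atf5 (ENSMUSG00000038539.15, chr7:44812256-44816658, minus strand) encodes a related factor whose translation is likewise favoured when eIF2 is phosphorylated. Its genotype difference was seen after palmitate, where KO exceeded WT. The 4 KO palmitate libraries held 5532, 7164, 7121 and 7186 normalized counts and KO control libraries 2698, 2802, 2950.1 and 2861. The 4 WT palmitate libraries held 4235, 4619, 4629.6 and 4745 and WT control libraries 2834, 2789, 2862 and 3139.6. The palmitate groups did not overlap with each other or with the controls, whereas KO control and WT control libraries were intermingled. KO over WT was 0.56 ± 0.08 after palmitate (SE, n = 4 each; limma adjusted p = 1.09e-05) and -0.04 ± 0.08 in control cells (limma adjusted p = 0.657). Palmitate raised Atf5 by 1.25 ± 0.08 in KO and 0.65 ± 0.08 in WT cells (limma adjusted p = 1.71e-08 and 1.32e-05). The first KO palmitate library stood well below the other 3, and without it the rise in KO was 1.34 ± 0.04. Atf5 shares its locus with Nup62 on the opposite strand, a nucleoporin gene with group means of 2340 to 2520 normalized counts. The strand used in counting is not given in the sources used here, so reads of the pair cannot be told apart with certainty.

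Ddit3 (ENSMUSG00000025408.15, chr10:127290774-127296288, plus strand) encodes CHOP, a C/EBP-family factor known for favouring cell death in prolonged stress. It rose with palmitate in both genotypes, and the genotypes differed by far less than the treatments. Normalized counts in KO palmitate libraries were 1303, 1278, 1418 and 1384, and in KO control libraries 665, 610.02, 639 and 660.1. In WT cells the palmitate libraries held 1142, 1192, 1186 and 1253 and WT control libraries 662, 653, 663 and 632. KO and WT controls overlapped, both palmitate groups lay far above them, and all KO palmitate libraries exceeded all WT palmitate libraries by a narrow margin. Palmitate raised Ddit3 by 1.06 ± 0.04 in KO and 0.87 ± 0.04 in WT (SE, n = 4 each; limma adjusted p = 3.06e-17 and 2.42e-15). The difference of KO from WT was 0.17 ± 0.04 after palmitate (limma adjusted p = 0.000536) and -0.02 ± 0.04 in control cells (limma adjusted p = 0.665). Scaling libraries to the same total reads took the palmitate value to 0.07 (adjusted p = 0.126) and the control value to -0.10 (adjusted p = 0.0409). The other Ddit3 identifier, ENSMUSG00000116429.1, overlaps the first on the same strand and held 0 to 3.34 normalized counts, below the filter. Mars, a tRNA synthetase gene on the opposite strand with group means of 2590 to 3390 normalized counts, also overlaps Ddit3.

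Atf3 (ENSMUSG00000026628.13, chr1:191170296-191218039, minus strand), an ATF/CREB factor gene induced early by many stresses, had the largest rise with palmitate of the 10 in WT cells. In KO cells the palmitate libraries held 1287, 1338, 1565 and 1609 normalized counts and KO control libraries 237, 225, 202 and 217. Among WT libraries, those given palmitate held 1625, 1530.3, 1556 and 1656 and WT control libraries 312, 316, 342 and 333. KO controls lay under WT controls without overlap, while the palmitate groups overlapped, with KO libraries 3 and 4 in the WT range. The rise was 2.71 ± 0.06 in KO and 2.29 ± 0.06 in WT on the log2 scale (SE, n = 4 each; limma adjusted p = 7.71e-22 and 3.81e-20). KO over WT was -0.56 ± 0.06 in control cells (limma adjusted p = 4.35e-09). After palmitate it was -0.14 ± 0.06 (limma adjusted p = 0.041). That call was lost in 7 of 28 alternatives, including leaving out KO palmitate library 1 (-0.09, adjusted p = 0.2), KO palmitate library 2 (-0.10, adjusted p = 0.151), WT palmitate library 1 (-0.13, adjusted p = 0.0869) or WT palmitate library 4 (-0.12, adjusted p = 0.109).

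Cebpb (ENSMUSG00000056501.3, chr2:167688915-167690418, plus strand) encodes C/EBPβ, a partner of ATF4 and CHOP that also drives acute-phase genes in liver. It was the exception among the 10 in that its palmitate response passed the threshold in neither genotype. KO palmitate libraries held 905, 780.2, 876 and 810.1 normalized counts and KO control libraries 914, 897, 895 and 784. WT palmitate libraries held 814, 876, 828 and 952 and WT control libraries 709, 660.5, 865 and 829.9. All 4 groups overlapped, and the lowest values were those of the first and second WT control libraries. Palmitate over control was -0.05 ± 0.08 in KO and 0.19 ± 0.08 in WT (SE, n = 4 each; limma adjusted p = 0.673 and 0.0833). The WT value passed the threshold under edgeR (adjusted p = 0.0352), DESeq2 (adjusted p = 0.034) and scaling to the same total (0.23, adjusted p = 0.031), and without WT control library 3 or 4 (adjusted p = 0.0162 and 0.0464). It missed the threshold in the other 23 of 28 alternatives, and without WT control library 2 it was 0.12 (adjusted p = 0.233). The difference of KO from WT was -0.04 ± 0.08 after palmitate (limma adjusted p = 0.655) and 0.19 ± 0.08 in control cells (limma adjusted p = 0.0376). The control call was lost in 9 of 28 alternatives, with adjusted p up to 0.199. Leaving out WT control library 2 moved the value to 0.13 (adjusted p = 0.123), and it also lost the call without WT control library 1 or KO control library 1, 2 or 3 (adjusted p = 0.0803 to 0.105). Cebpb lies 241.6 kb from Ptpn1 on chromosome 2 and overlaps Tmem189 on the opposite strand, which had group means of 420 to 771 normalized counts. Trib3 and Chac1 are on chromosome 2 as well, 15588 kb and 48578 kb from Ptpn1.

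**Figure D2:**
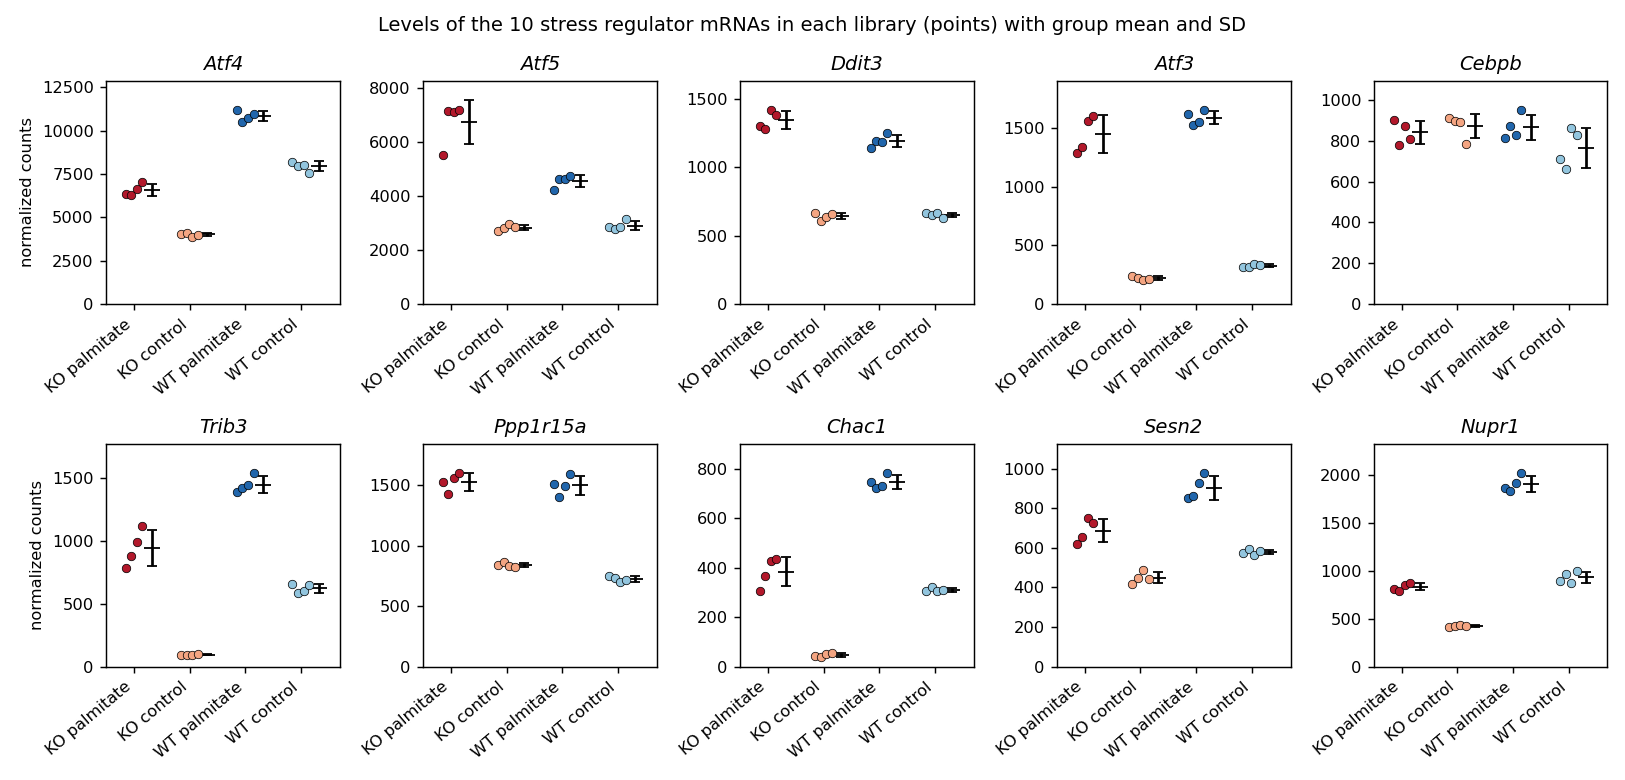
Normalized counts of the 10 regulators in each library (points, in library order within a group) with the group mean and SD beside them, from left to right KO palmitate, KO control, WT palmitate and WT control, on axes that start at 0. Trib3, Chac1, Nupr1 and Atf4 are lowest in KO control libraries, Atf3, Ddit3 and Ppp1r15a separate by treatment, and the 4 groups of Cebpb overlap.

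Trib3 and Ppp1r15a act back on the response. Trib3 (ENSMUSG00000032715.9, chr2:152337422-152344032, minus strand) encodes a pseudokinase that is induced by ATF4 with CHOP and restrains ATF4 and the kinase AKT. Its span was close to that of Chac1, the widest of the 10, and it was very low in KO control cells. The 4 KO palmitate libraries held 783, 882, 994 and 1124 normalized counts and KO control libraries 94.4, 91.1, 92.1 and 101. The 4 WT palmitate libraries held 1389.7, 1422, 1446 and 1545 and WT control libraries 656, 585, 601 and 654. The 4 groups formed 4 separate ranges, and even the lowest KO palmitate library exceeded the highest WT control library. The KO control mean was 15.2% of the WT control mean, a log2 fold change of -2.71 ± 0.08 (SE, n = 4 each; limma adjusted p = 2.83e-19). After palmitate the KO mean was 65.2% of the WT mean (-0.63 ± 0.08; limma adjusted p = 1.19e-07). Palmitate raised Trib3 by 3.30 ± 0.08 in KO and 1.22 ± 0.08 in WT (limma adjusted p = 6.59e-19 and 4.09e-11).

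Ppp1r15a (ENSMUSG00000040435.12, chr7:45522916-45526268, minus strand) encodes GADD34, which brings protein phosphatase 1 to phosphorylated eIF2 and so restores translation. Its level followed the treatment, with a small excess in KO control cells. Normalized counts in KO palmitate libraries were 1523, 1422, 1554 and 1601, and in KO control libraries 841, 860.3, 830.2 and 825. In WT cells the palmitate libraries held 1505, 1397, 1493 and 1589.7 and WT control libraries 749, 732, 695 and 712. The palmitate groups overlapped almost completely, and KO controls lay above WT controls without overlap. Palmitate raised it by 0.86 ± 0.04 in KO and 1.05 ± 0.04 in WT (SE, n = 4 each; limma adjusted p = 2.09e-15 and 2.3e-17). KO over WT was 0.03 ± 0.04 after palmitate (limma adjusted p = 0.555), a sign that turned to -0.07 with libraries scaled to the same total. In control cells it was 0.22 ± 0.04 (limma adjusted p = 3.07e-05). Ppp1r15b, which encodes the constitutive counterpart of GADD34, moved little: palmitate over control was 0.14 in KO cells (limma adjusted p = 0.000395) and 0.00 in WT cells (limma adjusted p = 0.959).

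Chac1, Sesn2 and Nupr1 carry the response into metabolism, growth control and chromatin. Chac1 (ENSMUSG00000027313.3, chr2:119351229-119354381, plus strand) encodes an enzyme that degrades glutathione. In KO cells the palmitate libraries held 307, 367, 428 and 435 normalized counts and KO control libraries 42.0, 40.1, 52.6 and 55.1. Among WT libraries, those given palmitate held 746, 724, 732 and 784 and WT control libraries 304, 323, 305 and 309. Like Trib3, Chac1 was lowest in KO controls and highest in WT palmitate libraries, but its KO palmitate range overlapped the WT control range. The difference of KO from WT was -0.97 ± 0.10 after palmitate and -2.70 ± 0.10 in control cells (SE, n = 4 each; limma adjusted p = 1.88e-09 and 1.31e-18). Palmitate raised it by 2.99 ± 0.10 in KO and 1.26 ± 0.10 in WT (limma adjusted p = 1.33e-17 and 3.17e-10).

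Sesn2 (ENSMUSG00000028893.8, chr4:132492032-132510501, minus strand) encodes sestrin 2, a leucine-binding inhibitor of mTORC1. KO palmitate libraries held 621, 655, 749.5 and 726 normalized counts and KO control libraries 419.7, 448, 489 and 444. WT palmitate libraries held 851, 862, 927 and 980.1 and WT control libraries 576, 594, 566 and 583. The groups did not overlap, with KO under WT in each condition. KO over WT was -0.40 ± 0.06 after palmitate and -0.37 ± 0.06 in control cells (SE, n = 4 each; limma adjusted p = 5.05e-07 and 1.86e-06). Palmitate raised it by 0.61 ± 0.06 in KO and 0.64 ± 0.06 in WT (limma adjusted p = 2.27e-09 and 1.24e-09).

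Nupr1 (ENSMUSG00000030717.9, chr7:126623249-126630861, minus strand) encodes a small nuclear protein induced by stress. The 4 KO palmitate libraries held 814, 789.95, 848 and 872 normalized counts and KO control libraries 417, 420.4, 438 and 424. The 4 WT palmitate libraries held 1867, 1833, 1920.1 and 2024 and WT control libraries 898, 966, 874 and 999. All groups were separate, and KO palmitate libraries fell just short of the WT control range. KO stood at 43.5% of WT after palmitate and 45.5% in control cells, or -1.20 ± 0.05 and -1.13 ± 0.05 on the log2 scale (SE, n = 4 each; limma adjusted p = 1.12e-19 and 4.12e-19). Palmitate raised it by 0.97 ± 0.05 in KO and 1.03 ± 0.05 in WT (limma adjusted p = 1.1e-15 and 2.7e-16).

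Whether the genotypes responded differently was tested directly as the KO response minus the WT response. Of the 10 genes, 6 had a larger response in KO and 1 a smaller one, against 4.19% and 5.71% of all genes tested. Here and below a response is a ratio on the log2 scale, which need not mean a larger rise in counts. From the group means, the rise in normalized counts was smaller in KO for Atf4, Chac1 and Atf3. It was larger in KO for Trib3, Atf5 and Ddit3. Trib3 had the largest difference, 2.08 ± 0.11 (SE, n = 4 libraries in each of the 4 groups; limma adjusted p = 3.97e-11), followed by Chac1 at 1.73 ± 0.14 (limma adjusted p = 1.19e-08). Both started from the lowest levels in KO control cells. Atf5 differed by 0.60 ± 0.11, Atf3 by 0.42 ± 0.09 and Atf4 by 0.26 ± 0.05 (limma adjusted p = 0.00296, 0.00203 and 0.000409). Those 5 differences kept their call in all 27 alternatives that gave one. Ddit3 at 0.19 ± 0.06 and Ppp1r15a at -0.19 ± 0.06 passed the threshold narrowly (limma adjusted p = 0.036 and 0.0383). Ddit3 kept the call in 12 of 27 alternatives and Ppp1r15a in 15. By DESeq2 on the recovered reads neither was called (adjusted p = 0.0523 for Ddit3 and 0.0551 for Ppp1r15a), and by edgeR Ppp1r15a missed as well (adjusted p = 0.0503). No difference was called for Sesn2 (-0.03 ± 0.08; limma adjusted p = 0.868), Nupr1 (-0.07 ± 0.06; limma adjusted p = 0.582) or Cebpb (-0.23 ± 0.11; limma adjusted p = 0.225).

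**Figure D3:**
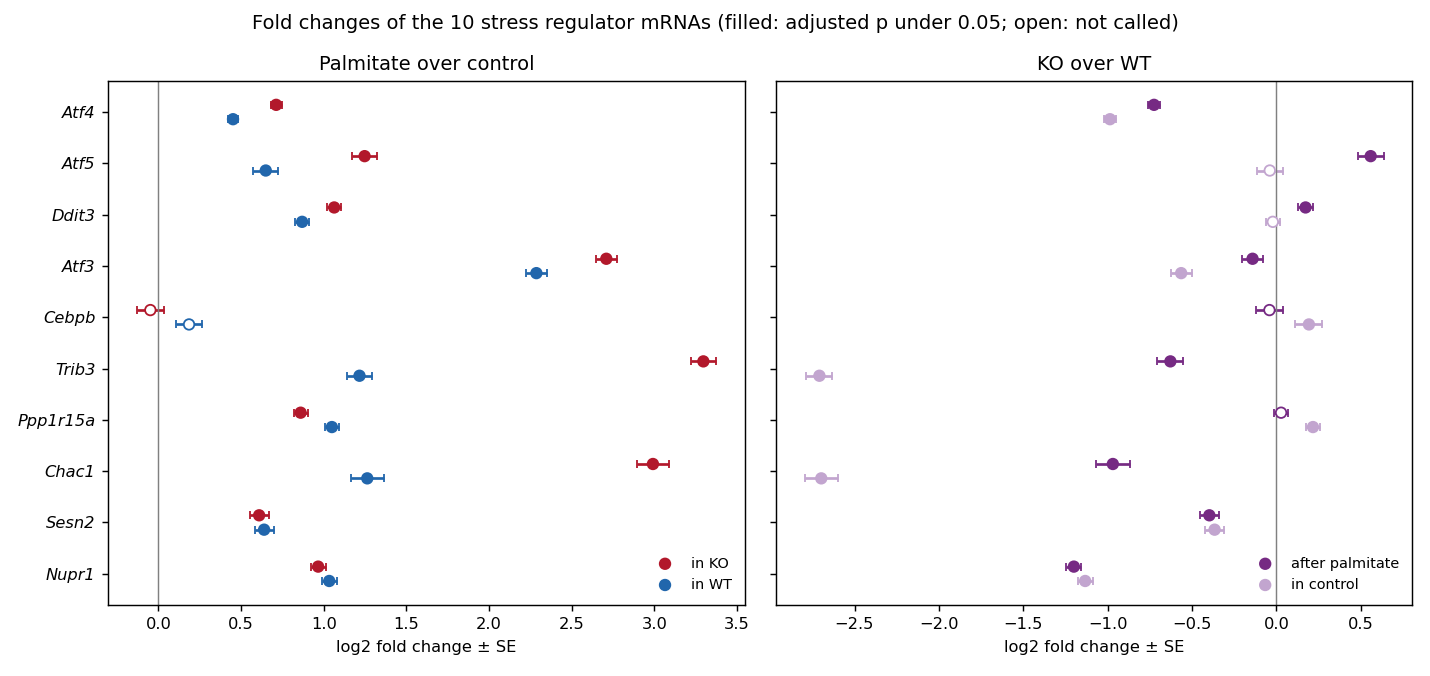
Log2 fold changes with SE of the 10 regulators from limma, palmitate over control in KO and WT cells (left) and KO over WT after palmitate and in control cells (right). Filled points passed an adjusted p of 0.05, open points did not, and Trib3 and Chac1 show the widest gaps between genotypes (3.30 in KO and 1.22 in WT for Trib3).

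The order of the 4 groups took several forms. For Atf4 and Nupr1 both KO groups lay below both WT groups, so that even palmitate-treated KO cells stayed under untreated WT cells, at -0.28 ± 0.03 for Atf4 and -0.17 ± 0.05 for Nupr1 (SE, n = 4 each; limma adjusted p = 1.27e-08 and 0.00139). For Trib3, Chac1, Atf3 and Sesn2 the order from low to high was KO control, WT control, KO palmitate, WT palmitate. The middle step of that order was 0.59 ± 0.08 for Trib3, 0.29 ± 0.10 for Chac1, 2.15 ± 0.06 for Atf3 and 0.24 ± 0.06 for Sesn2. All 4 were called, although the Chac1 libraries of KO palmitate and WT control overlapped (limma adjusted p = 0.00894). For Ddit3, Atf5 and Ppp1r15a the KO palmitate group was highest, without a called difference from WT palmitate in Ppp1r15a. Neighbouring groups in the order of Cebpb were not separated by any call. Over the whole set 7 genes were higher and 2 lower in KO palmitate than in WT control, against 39.8% and 40.3% of all genes. In WT palmitate against KO control 9 were higher and none lower, against 38.2% and 37.5%, and Chac1 and Trib3 spanned the widest range, at 15.7 and 15.3 times the KO control mean.

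Proportions among the regulators, taken per kb of exon within each library, shifted with both genotype and treatment. Trib3 amounted to 0.565 ± 0.07 of Ddit3 in KO palmitate libraries, 0.119 ± 0.0039 in KO control, 0.98 ± 0.013 in WT palmitate and 0.771 ± 0.054 in WT control libraries (SD, n = 4 each). The 4 ranges did not overlap, the KO control libraries lying between 0.114 and 0.123 and the WT palmitate libraries between 0.962 and 0.994. Atf5 amounted to 1.22 ± 0.13 of Atf4 in KO palmitate, 0.835 ± 0.049 in KO control, 0.497 ± 0.033 in WT palmitate and 0.434 ± 0.039 in WT control libraries (SD, n = 4 each). Every KO library thus had more Atf5 per Atf4 than every WT library. Ddit3 per Atf4 had the same order, with 0.282 ± 0.0097 in KO palmitate, 0.221 ± 0.011 in KO control, 0.151 ± 0.0076 in WT palmitate and 0.113 ± 0.0018 in WT control libraries (SD, n = 4 each). These ratios are given as descriptions without a test.

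In both palmitate groups, though in neither control group, the same libraries were low or high for many of the genes. In KO palmitate cells the lowest of the 4 libraries was library 1 for 5 genes and library 2 for the other 5, and library 4 was the highest for 7. In WT palmitate cells library 1 was lowest for 5 genes, library 2 for 5, and library 4 was highest for 9. In both control groups each library was the lowest for 2 or 3 genes and the highest for 2 or 3. The SD was 15.5% of the mean for both Trib3 and Chac1 in KO palmitate libraries, and 15.8% for Chac1 in KO control libraries. Ribosomal RNA was 0.107% of reads in KO palmitate library 1 and 0.101% in library 2, beside 0.104% and 0.105% in libraries 3 and 4. Mitochondrial mRNA was 4.22% in library 1, beside 3.93% to 3.998% in the other 3. Their part in the scatter was not tested.

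Among the 10 genes themselves, the likeness of 2 patterns over the 16 libraries was taken as the root mean square difference of their log2 values, each centred on its own mean. The closest pairs were Ddit3 with Ppp1r15a, at 0.113, Ddit3 with Atf5, at 0.167, and Trib3 with Chac1, at 0.172. Trib3 and Cebpb were farthest apart, at 1.52. Of 11276 other expressed genes, those nearest to Atf4 were Fdps (0.099), Sqle (0.107) and Msmo1 (0.109), all enzymes of cholesterol synthesis. Nupr1 lay nearest to Mvd (0.094), another such enzyme, then Slc6a9 (0.187), a glycine transporter, and Msmo1 (0.197). Mvd averaged 835 normalized counts in KO palmitate, 463 in KO control, 1946 in WT palmitate and 1016.0 in WT control libraries.

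Ppp1r15a and Ddit3 lay nearest to Scd1, a fatty acid desaturase gene (0.1 and 0.134), and both shared Tm7sf2 (0.155 and 0.151) and Scd2 (0.173 and 0.162) as their next genes. Atf5 lay nearest to Scd2 (0.169), Apobec1 (0.200) and Kifc2 (0.204). For Trib3 and Chac1 the nearest gene was Angptl4, a secreted lipase inhibitor, at 0.497 and 0.448. Next came Slc7a11 (0.564) and Egr1 (0.643) for Trib3, and Arid5a (0.611) and Egr1 (0.620) for Chac1. Atf3 lay nearest to Csf2 (0.286), Slc7a11 (0.306) and Egr1 (0.537). Sesn2 lay nearest to Cdkn2b (0.1), Eya2 (0.108) and Pik3r3 (0.110), and Cebpb to Atp6v0d1 and Nfkbia (0.093 each) and Sbk1 (0.099). These distances describe 16 libraries that share 4 group means, and a gene with a small range, such as Cebpb, is near to many. They are not scaled to a gene's own log2 SD, which was 0.135 for Cebpb, 1.48 for Chac1 and 1.50 for Trib3.

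Among 17 genes of the upstream machinery of eIF2 control, palmitate raised 4 and lowered 4 in KO, and raised 3 and lowered 8 in WT cells, with medians of 0.00 and -0.06. The KO counts are near the shares of all genes, 18.7% called higher and 20.4% lower, and in WT cells 17.7% and 19.9% of all genes were called. In KO the largest change was in Dnajc3 (0.36 ± 0.05), whose product P58IPK inhibits eIF2 kinases, and its response exceeded that of WT by 0.33 ± 0.07 (SE, n = 4 each; limma adjusted p = 0.00414). Eif2s1, the gene of the phosphorylated subunit itself, fell by 0.27 ± 0.04 in KO cells and fell by 0.38 ± 0.04 in WT cells (limma adjusted p = 1.76e-06 and 6.4e-09). The kinase gene Eif2ak3, which encodes PERK, was higher in KO than in WT by 0.36 ± 0.03 after palmitate and by 0.51 ± 0.03 in control cells. Of the other eIF2 kinase genes, named here after their values were seen, Eif2ak4 was not called in either condition. Eif2ak1 was lower in KO, at -0.11 after palmitate and -0.15 in control cells, and Eif2ak2 at -0.17 and -0.10. Of the 17 genes, 4 were higher and 9 lower in KO after palmitate, and 2 and 10 in control cells. Over all genes 38.1% were called higher and 39.0% lower after palmitate, and 37.8% and 39.3% in control cells. Impact, whose product holds back the amino acid sensor GCN2, was lower in KO, at -1.82 ± 0.04 after palmitate and -1.59 ± 0.04 in control cells.

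Of 43 tested target genes of ATF4 outside the 10, palmitate raised 37 and lowered 1 in KO, and raised 30 and lowered 1 in WT cells, beside 18.7% raised and 20.4% lowered in KO and 17.7% and 19.9% in WT over all genes. The same shares apply to the palmitate counts of the lists that follow. Their median was 0.41 in KO and 0.27 in WT, smaller than that of the regulators. The response was larger in KO for 23 and smaller for 7, beside 4.19% and 5.71% of all genes. Slc7a11, the cystine importer gene, had the largest rise, 3.27 ± 0.07 in KO and 2.12 ± 0.07 in WT (SE, n = 4 each; limma adjusted p = 1.03e-23 and 1.77e-19), and averaged 913 normalized counts in KO palmitate, 94.0 in KO control, 1036 in WT palmitate and 238 in WT control libraries. The neutral amino acid transporter gene Slc1a4, the mitochondrial folate enzyme gene Mthfd2 and the proline synthesis gene Aldh18a1 had responses larger in KO by 1.01 ± 0.14, 0.99 ± 0.08 and 0.74 ± 0.06 (limma adjusted p = 0.000335, 3.76e-08 and 4.76e-09). In control cells 33 of the 43 were lower and 8 higher in KO, and after palmitate 28 were lower and 10 higher, beside 39.3% of all genes called lower and 37.8% higher in control cells and 39.0% and 38.1% after palmitate. Aldh1l2, another mitochondrial folate enzyme gene, was the most reduced, at -3.98 ± 0.12 after palmitate and -4.49 ± 0.12 in control cells, whereas Gpt2, an alanine transaminase gene, was higher in KO by 1.11 ± 0.03 and 1.46 ± 0.03. Of these 43 genes, 3 (Wars, Gadd45a and Ero1l) are also counted among the CHOP targets below.

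**Figure D4:**
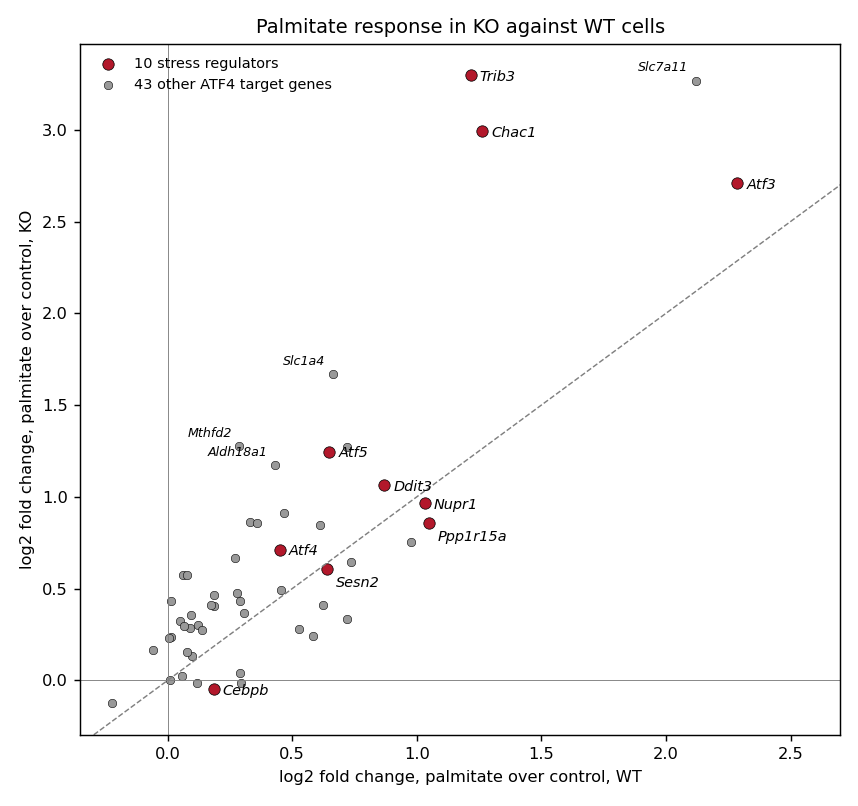
Log2 fold change with palmitate in KO cells (vertical) against that in WT cells (horizontal) for the 10 regulators (red) and 43 other ATF4 target genes (grey), with the line of equal response dashed. Trib3, Chac1 and Slc7a11 lie farthest above the line, while Sesn2 and Nupr1 lie close to it.

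Of 10 CHOP target genes palmitate raised 6 and lowered 1 in KO, and raised 5 and lowered 1 in WT cells, with modest sizes. Gadd45a, a growth arrest gene, rose most, by 0.64 ± 0.06 in KO and 0.74 ± 0.06 in WT (SE, n = 4 each; limma adjusted p = 7.38e-09 and 1.01e-09). Ero1l, an oxidase of the endoplasmic reticulum, rose by 0.48 ± 0.04 and 0.28 ± 0.04, and the BH3-only gene Bbc3 by 0.35 ± 0.06 and 0.54 ± 0.06. Pmaip1, another BH3-only gene, stood at 0.02 in KO (limma adjusted p = 0.751) and rose by 0.37 ± 0.03 in WT, a difference of -0.35 ± 0.05 (limma adjusted p = 1.38e-05). The death receptor gene Tnfrsf10b was lower in KO, at -1.11 ± 0.05 after palmitate and -1.03 ± 0.05 in control cells. Car6 was lower by more, at -6.50 ± 0.30 after palmitate and -5.72 ± 0.30 in control cells. Bcl2l11 was higher in KO after palmitate, by 0.64 ± 0.04. In control cells 4 of the 10 were higher and 6 lower in KO, and after palmitate 3 were higher and 6 lower. Over all genes 37.8% were called higher and 39.3% lower in control cells and 38.1% and 39.0% after palmitate, so the shares called higher are near those of genes at large.

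The other branches of the unfolded protein response, run by IRE1 and ATF6, gave more calls in KO than in WT cells. Of 21 such genes 20 passed the filter on low values, and palmitate raised all 20 in KO, and raised 10 and lowered 1 in WT cells, with medians of 0.29 and 0.07. The response was larger in KO for 10 and smaller for none, beside 4.19% and 5.71% of all genes. The chaperone gene Hspa5, which encodes BiP, rose by 0.55 ± 0.03 in KO and 0.09 in WT, a difference of 0.46 ± 0.04 (SE, n = 4 libraries in each of the 4 groups; limma adjusted p = 2.75e-08). Herpud1, a degradation factor of the endoplasmic reticulum, rose by 0.61 ± 0.04 in KO and 0.74 ± 0.04 in WT, and Xbp1, the target of IRE1, by 0.51 ± 0.04 and 0.32 ± 0.04. Among 22 tested partners of the basic leucine zipper class, which can pair with these factors or compete with them, palmitate raised 13 and lowered 3 in KO, and raised 14 and lowered 2 in WT cells. Cebpd, a C/EBP factor gene, fell by 0.70 ± 0.11 in KO cells, and in WT cells it fell by 0.60 ± 0.11. Maf and Cebpa were higher in KO than in WT, by 1.90 ± 0.10 and 1.44 ± 0.12 after palmitate and by 2.05 ± 0.10 and 1.31 ± 0.12 in control cells. Jund was lower in KO, at -1.05 ± 0.06 after palmitate and -1.18 ± 0.06 in control cells. Of the 22 partners, 7 were higher and 9 lower in KO after palmitate, and 7 higher and 12 lower in control cells. Over all genes 38.1% were called higher and 39.0% lower after palmitate, and 37.8% and 39.3% in control cells. The response was smaller in KO for Junb (-0.28 ± 0.06) and Fosl2 (-0.18 ± 0.04) and larger for 1 gene, Fosb, which is named here after its values were seen and averaged 26.3 normalized counts in KO palmitate, 3.38 in KO control, 38.5 in WT palmitate and 15.9 in WT control libraries. Those counts, 2 smaller and 1 larger of 22, are near the shares of all genes, 5.71% and 4.19%.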

How the data were processed

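Total RNA was depleted of ribosomal RNA with a KAPA RiboErase kit and sequenced in paired-end mode on a HiSeq2000, per the labels' protocols, which speak of fixed, embedded samples and low RNA quality although the cells were cultured. The submitters' processing notes name STAR, RSEM, DESeq2 and limma without versions. No source used here gives the aligner settings, the annotation or the counting strand. The deposited table holds, for 55421 genes and 16 libraries, a signal made of gene counts divided by a size factor per library. In all 16 libraries 100% of the values were whole multiples, within 0.1 read, of the value of 1 read, so read counts could be recovered, and median-of-ratios size factors recomputed from them matched the deposited scaling. The identifiers of 54587 genes matched GENCODE vM21 on GRCm38 with their version, from which positions and exon lengths were taken.

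The 15239 genes that reached 10 normalized counts in 4 or more libraries were tested on log2(value + 1) with limma 3.58.1 in R 4.3.3, with a mean for each of the 4 groups, a trended and robust empirical Bayes step and 7 two-sided comparisons, each adjusted by the Benjamini-Hochberg method over all genes tested. Fold changes on that scale understate changes of genes near 0. The limma fit was run on simulated data with known changes before use. Precision rests on 4 libraries per group. The 4 groups share 1 estimate of the spread for each gene, so each SE of the main fit draws on all 16 libraries. Replicate numbers were not used as pairs in the main fit. Of 24 same-numbered pairs across groups none had deviations from the group means that correlated above 0.1 (-0.11 to 0.06). Such low correlations cannot exclude a pairing by design. Alternatives covered pseudocounts of 0.5 and 5, no filter, a mean of at least 50, scaling to the same total, trimmed-mean factors, quantile normalization, edgeR 4.0.16 and DESeq2 1.42.0 on the recovered reads, plain empirical Bayes, a replicate block, each pair of groups alone and leaving out each library. Likeness of patterns and marker sums were computed with Python 3.11.15. Promoter sequences are from RefSeq.

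The 10 members and all lists were chosen with earlier results of these data known. Named genes are the 10, Ptpn1, up to 4 called genes per list and comparison with the largest change whose higher group averaged 50 or more, of which those the text needs are given, and the 3 nearest genes of each member with a mean of at least 50. Sums over 10 macrophage and leukocyte markers, mostly Cd14 and Csf1r with Adgre1 and Tyrobp at 0 throughout, and over 9 endothelial markers were 2721 to 3377 and 252 to 302 in KO libraries, against 1623 to 2068 and 867 to 969 in WT libraries. Eng made up most of the WT endothelial sum. It averaged 825 in WT palmitate and 845 in WT control libraries, beside 65.9 and 69.8 in KO. Esam ran the other way, averaging 191 in KO palmitate and 164 in KO control libraries, beside 19.0 and 14.9 in WT.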

Additional observations from a re-analysis of the deposited data

Results flagged for a closer look

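In groups of 4 libraries, the library farthest from the rest was compared with the range of its group by Dixon's 95% criterion, which chance passes in about 1 of 20 groups. Of 40 groups tested, 2 passed. KO palmitate library 1 held 5532 normalized counts of Atf5, below the other 3, and without it Atf5 in KO over WT after palmitate was 0.65 ± 0.04 on the log2 scale, beside 0.56 ± 0.08 with it. KO control library 4 held 784 normalized counts of Cebpb, below the other 3.

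The palmitate response differed between KO and WT, by the test of the difference itself, for 7 of the 10 genes, 6 with a higher and 1 with a lower response in KO, beside 4.19% and 5.71% of all genes. The differences, KO minus WT on the log2 scale, were 2.08 for Trib3, 1.73 for Chac1, 0.60 for Atf5, 0.42 for Atf3, 0.26 for Atf4, 0.19 for Ddit3 and -0.19 for Ppp1r15a. Ddit3 kept the call in 12 and Ppp1r15a in 15 of 27 alternatives, and the other 5 genes in all 27. Trib3 and Chac1 had the lowest KO control levels per kb of exon, and Trib3 and Chac1 remained lower in KO than in WT after palmitate. Atf5 was higher in KO than in WT after palmitate, and Atf3 and Ppp1r15a overlapped between the genotypes after palmitate.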

How the results depend on the processing

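The count of members called stayed within 1.5 times its value in all 7 comparisons under each alternative, at 7 to 8 for KO against WT in control and after palmitate, 9 for palmitate in KO, 9 to 10 in WT and 5 to 7 for the difference of responses. Counts over all genes also stayed within 1.5 times. Of 1950 alternative values, 1883 kept direction and call, 44 lost a call, 7 gained one and 16 changed sign, all 16 in values that had no call. With quantile normalization Ddit3 in KO against WT control cells was 0.008, and leaving out 1 library gave -0.04 to 0.01 (lowest -0.037, highest 0.005). Ppp1r15a in KO against WT after palmitate was -0.072 with the same total and -0.004 with quantile normalization, and leaving out 1 library gave -0.005 to 0.061. Leaving out 1 library gave -0.076 to 0.005 for Cebpb after palmitate and -0.073 to 0.017 for the Sesn2 difference of responses. Cebpb in WT palmitate against KO control was 0.113 with the same total, 0.007 by edgeR and -0.059 to 0.021 leaving out 1 library. For these values the cause was not tested. Scaling to the same total moved the median of all genes by 0.12 in WT palmitate against KO control and by less than 0.1 in size elsewhere. The split of calls became 7255 higher and 4462 lower there (5822 and 5721 as reported), 3655 and 2265 for palmitate in WT (2702 and 3032 as reported), and 489 and 1141 for the difference of responses (638 and 870 as reported). For palmitate in KO it became 3273 and 2726 (2845 and 3115 as reported). For KO against WT it became 4980 and 6815 in control cells (5759 and 5985 as reported). After palmitate the KO against WT split became 4809 and 7051 (5811 and 5944 as reported). Of the 10 members, 1 was then higher and 7 lower in KO in control cells, and 1 higher and 6 lower after palmitate. With the replicate block, calls over all genes numbered 11805 for KO against WT in control and 1820 for the difference of responses, and 2 of 16 libraries correlated best with their own number. Limits: 4 libraries per group of unstated origin, a control medium that is not described, and a genotype contrast in which most genes differ. The counting strand is unknown for Ddit3, Atf5 and Cebpb.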
